A study of Mus musculus with 9 samples.

Results

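The peptide-encoding genes Gal, Crh and Adcyap1 were followed in ribosome-bound RNA of mouse retinal glia after injury of the optic nerve. They are 3 of the 14194 gene entries of the deposited table, taken by gene symbol, and were chosen because earlier results of these data showed them higher after injury, so their difference between the groups is given as a description without a test. The 9 libraries came from retinae of mice labelled Aldhl1l-Cre/Ert2+; NuTRAP+, in which tamoxifen turns on a Cre recombinase driven by the astroglial gene Aldh1l1, and that Cre switches on a GFP-tagged ribosomal protein. Antibody to GFP then pulls down the ribosomes of the marked cells (the positive fraction), which in the retina are meant to be Müller glia, although astrocytes also use Aldh1l1. In 5 libraries (ONC) the optic nerve had been clamped for 3 s about 1 mm behind the eye and the retinae were collected 72 h later. The other 4 (Control) came from the fellow eyes of the same animals, which were untreated or sham-operated. All 9 carry the same genotype and the same tamoxifen, each holds 2 pooled retinae, and the libraries are named by their pool of animals, 913/986 (ONC alone), 914/92, 938/88, 976/978 and 981/982. No library of unsorted retina was analysed here, and the labels state no age for the mice.

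Neuropeptides are made as longer precursors, cut by convertases, often amidated, stored in dense core vesicles and released to act on G protein-coupled receptors. Gal encodes galanin, which acts through receptors that mostly lower cyclic AMP, and Crh encodes corticotropin-releasing hormone, best known as the hypothalamic trigger of the stress axis, whose receptors raise it. Adcyap1 encodes PACAP, which activates adenylyl cyclase through the receptor PAC1 (Adcyap1r1) and is known as a protective peptide in the rodent retina. Galanin and PACAP are well known to be switched on in rodent sensory neurons after their axons are cut. Peptide precursors are usually products of neurons, and in the retina PACAP and CRH are known from ganglion and amacrine cells.

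In the coordinates of the deposited table (mm10), Gal (gene ID 14419) lies on chromosome 19 from 3409917 to 3414457 on the minus strand, Crh (12918) on chromosome 3 from 19693401 to 19695396 on the minus strand and Adcyap1 (11516) on chromosome 17 from 93199422 to 93205489 on the plus strand. Promoter windows of 300 bases, from 250 bases before to 50 after a RefSeq transcript start (GRCm38.p6), were matched for 2 of the 3 genes, Gal and Adcyap1, and are shown because these genes were high in the same libraries. Adcyap1 has 2 such windows, which overlap, and the downstream one is printed. Both windows lie upstream of the start of the gene model in the deposited table. Capitals mark matches to motifs searched on both strands: the full cyclic AMP response element TGACGTCA, its core TGACG (which the full element contains), the AP-1 motif TGANTCA, the STAT motif TTCNNNGAA and the TATA box TATAAA. The Gal window is chr19:3414495-3414794 on the minus strand, and the Adcyap1 window is chr17:93198918-93199217 on the plus strand.
Gal: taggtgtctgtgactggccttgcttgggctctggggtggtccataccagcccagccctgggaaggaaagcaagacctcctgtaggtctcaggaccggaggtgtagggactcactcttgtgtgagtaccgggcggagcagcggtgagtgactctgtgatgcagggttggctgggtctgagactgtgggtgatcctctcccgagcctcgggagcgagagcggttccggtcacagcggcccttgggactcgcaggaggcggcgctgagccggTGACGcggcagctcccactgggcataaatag
Adcyap1: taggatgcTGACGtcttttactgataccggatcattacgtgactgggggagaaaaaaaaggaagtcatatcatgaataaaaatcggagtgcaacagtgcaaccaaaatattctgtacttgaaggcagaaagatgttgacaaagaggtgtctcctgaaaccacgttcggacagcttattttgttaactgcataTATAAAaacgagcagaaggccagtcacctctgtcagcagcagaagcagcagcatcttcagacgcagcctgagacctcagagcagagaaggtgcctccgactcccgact
Each window held 1 core, which begins at -242 from the start site in Adcyap1 and at 19 in Gal. In the other Adcyap1 window, counted from its own start site, the same core begins at -91. Of the 32851 windows of the table, 20.8% hold one. The printed Adcyap1 window also holds a TATA box at -58, as do 13.6% of all windows. The other Adcyap1 window has no match to the TATA box. No full element, AP-1 or STAT motif was in either printed sequence, against 1.79%, 7.81% and 8.30% of all windows.

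The deposited values are on a log2 scale, each gene set against its own baseline, which lies near the median of its controls. A value of 0 is thus close to the level in control eyes, and a value compares libraries of one gene but not the levels of different genes. They hold no read depth, so precision rests on the spread between libraries alone. Markers of Müller glia were carried by all libraries: all 12 on the list (among them Glul, Rlbp1, Slc1a3 and Aqp4) passed the submitters' filter on raw values in both conditions, with list medians from -0.48 to 0.24 in Control and from -0.22 to 0.50 in ONC, and markers of neurons and microglia passed it too. Some libraries stood apart from their labels. The median of 4 Y-linked genes was -8.02 in ONC 913/986 and -7.92 in ONC 914/92, but -1.18 in Control 914/92 and -0.17 to 0.20 in the other 6, so the fellow eyes of pool 914/92 differed by 6.74 although the labels give them the same animals. The within-pool differences of Gal, Crh and Adcyap1 are therefore summarized with and without that pool, as are some fits blocked by pool. Counts of pools in which a gene was higher or lower include pool 914/92, as do the other blocked fits. Those counts and fits thus rest in part on a pair that is in doubt.

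All 3 transcripts were higher in every crushed eye than in every control eye. Galanin RNA was 12.9-fold higher, Crh RNA 5.32-fold and Adcyap1 RNA 2.89-fold, log2 differences of 3.69, 2.41 and 1.53. Quantile normalization, which gives every library the same distribution of values, was run on the deposited values, already set against a baseline. With it the 3 log2 differences were smaller, 2.90, 2.06 and 0.85. Whether that step removed real differences was not tested. The 3 of 3 that show no overlap stand beside 7.83% of all entries (3.39% with all ONC above all Control and 4.44% with all below), and as the genes were chosen from this contrast nothing is read from that count. Ordered by their difference among all 14194 entries, Gal held place 9, Crh place 54 and Adcyap1 place 156.

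Galanin showed the largest difference of the 3 and the largest spread. Its values were 0.00, 0.44, 0.15 and -1.56 in Control 914/92, 938/88, 976/978 and 981/982, and 4.42, 3.25, 3.62, 4.04 and 1.88 in ONC 913/986, 914/92, 938/88, 976/978 and 981/982. Pool 981/982 was the lowest of both groups, and its crushed eye still lay 1.44 above the highest control. The group means were -0.24 ± 0.90 (SD, n = 4) and 3.44 ± 0.98 (SD, n = 5), a difference of 3.69 on the log2 scale. Within pools the difference was 3.25 in 914/92, 3.18 in 938/88, 3.90 in 976/978 and 3.44 in 981/982. The within-pool differences thus varied less (SD 0.32, n = 4 pools) than the libraries did within their groups, and without pool 914/92 they averaged 3.51 ± 0.36 (SD, n = 3). Gal passed the raw-value filter (at least 5 in every library of a condition) in 1 of the 2 conditions, so at least 1 library had a low raw value. No other entry has the value of its lowest control library in a control. Each gene has its own baseline, however, so this cannot tell whether that value is a floor.

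Crh lay between the other peptides in the size of its difference. Its values were -0.62, 0.00, 0.16 and -1.002 in Control 914/92, 938/88, 976/978 and 981/982, and 2.33, 2.49, 2.36, 1.35 and 1.70 in ONC 913/986, 914/92, 938/88, 976/978 and 981/982. ONC 976/978, among the 2 highest for galanin, was the lowest for Crh, and the groups lay 1.20 apart at their nearest. The means were -0.36 ± 0.54 (SD, n = 4) and 2.05 ± 0.49 (SD, n = 5), a log2 difference of 2.41. Within pools it was 3.10 in 914/92, 2.36 in 938/88, 1.20 in 976/978 and 2.70 in 981/982, a mean of 2.34 ± 0.82 (SD, n = 4), and of 2.08 ± 0.79 (SD, n = 3) without pool 914/92. Unlike those of galanin, the differences of Crh between fellow eyes did not vary less than the libraries of a group. A difference carries the spread of 2 libraries, so no more is read from this.

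Adcyap1 had the smallest difference and the most even values among crushed eyes. It stood at 0.39, -0.03, 0.91 and 0.00 in Control 914/92, 938/88, 976/978 and 981/982, and at 2.17, 2.18, 1.80, 1.47 and 1.61 in ONC 913/986, 914/92, 938/88, 976/978 and 981/982. The highest control and the lowest crushed eye came from the same pool, 976/978, and lay 0.56 apart. The means were 0.32 ± 0.44 (SD, n = 4) and 1.85 ± 0.32 (SD, n = 5), a log2 difference of 1.53. Within pools it was 1.79 in 914/92, 1.83 in 938/88, 0.56 in 976/978 and 1.61 in 981/982, a mean of 1.45 ± 0.60 (SD, n = 4), or 1.33 ± 0.68 (SD, n = 3) without pool 914/92. Crh and Adcyap1 both pass the raw-value filter in both conditions.

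**Figure D1:**
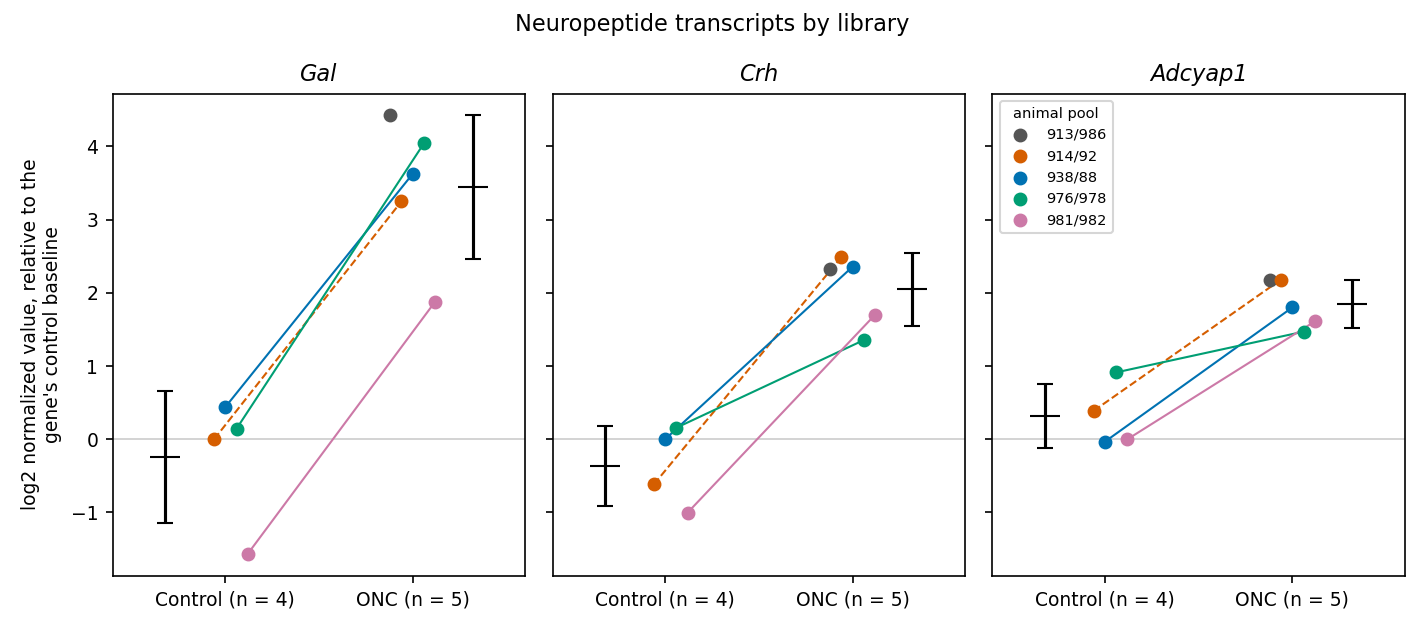
Log2 normalized values of Gal, Crh and Adcyap1 relative to each gene's control baseline, in 4 Control and 5 ONC libraries. Points are libraries coloured by animal pool, lines join fellow eyes (dashed for 914/92), and black bars are the mean ± SD of a group. All crushed eyes lie above all controls in each panel, and the lines of Gal run nearly parallel.

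The order of the differences held within most crushed eyes. Relative to its own control baseline, Gal stood above Crh in 5 of 5 ONC libraries, by 0.18 in 981/982 to 2.69 in 976/978. Crh stood above Adcyap1 in 4 of 5, the exception being 976/978 at -0.12. The crushed eye 914/92, highest of the 5 for both Crh and Adcyap1, was second lowest for galanin. Leaving out ONC 913/986 and ONC 914/92, which had little Y-linked RNA, gave differences of 3.43 for Gal, 2.17 for Crh and 1.31 for Adcyap1.

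Among precursors of neuropeptides and related peptide hormones, a list of 67, 23 were in the table and Gal, Crh and Adcyap1 held places 1, 3 and 5 by their difference. None of the other 20 passed the test over all entries (two-sided limma test with a trend in the variance, Benjamini-Hochberg adjusted p under 0.05), against 0.352% of all entries (1.16% without that trend), while 7 of the 20 had an unadjusted p under 0.05, 5 of them higher and 2 lower. Of all entries 8.81% were higher and 10.8% lower at that unadjusted threshold, and the unadjusted counts of the lists that follow are to be read beside these shares. The median difference of the 20 was -0.04, beside -0.00 over all entries. Of the 14 that passed the raw-value filter in both conditions, 4 had a positive and 10 a negative difference. Calca, which encodes calcitonin gene-related peptide, stood at 0.00, 0.08, -0.63 and -1.13 in the controls and at 1.34, 1.80, 0.27, 1.19 and 0.11 in the crushed eyes, with pools in the order used above. These groups did not overlap, but ONC 981/982 lay close to Control 938/88, and the log2 difference of 1.36 ± 0.39 (SE) had an adjusted p of 0.132 by limma. Tac1, the precursor of substance P, differed by 0.34 ± 0.09 (SE, adjusted p = 0.130), from -0.13 to 0.19 in Control and from 0.23 to 0.46 in ONC, so its values were apart but close. Apln, which encodes the vessel-growth peptide apelin, differed by -1.06 ± 0.31 (SE, adjusted p = 0.137) and was lower in 4 of 4 pools.

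Differences of other precursors went in both directions. Penk, the enkephalin precursor, had a difference of -1.20 that rests on ONC 914/92, whose value of -4.76 lay far below the other crushed eyes (-0.98 to 0.20). Npy differed by 0.66 (adjusted p = 0.233) and Vip, the closest relative of PACAP, by -0.74 (adjusted p = 0.199). Sst and Cck, markers of amacrine subtypes, differed by -0.00 and -0.06. Adm2, a calcitonin family peptide also called intermedin, had the second largest difference, 3.10 ± 1.08 (SE), at an adjusted p of 0.178 and of 0.0287 without a variance trend. It stood at 2.19, 0.00, 0.00 and 1.39 in the controls and at 4.69, 4.72, 3.64, 3.56 and 3.37 in the crushed eyes, and since 2 controls share its lowest value and it passed the filter in 1 condition, its difference depends on a floor. Penk, Npy, Sst, Cck and Adm2 were chosen once their values were known.

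**Figure D2:**
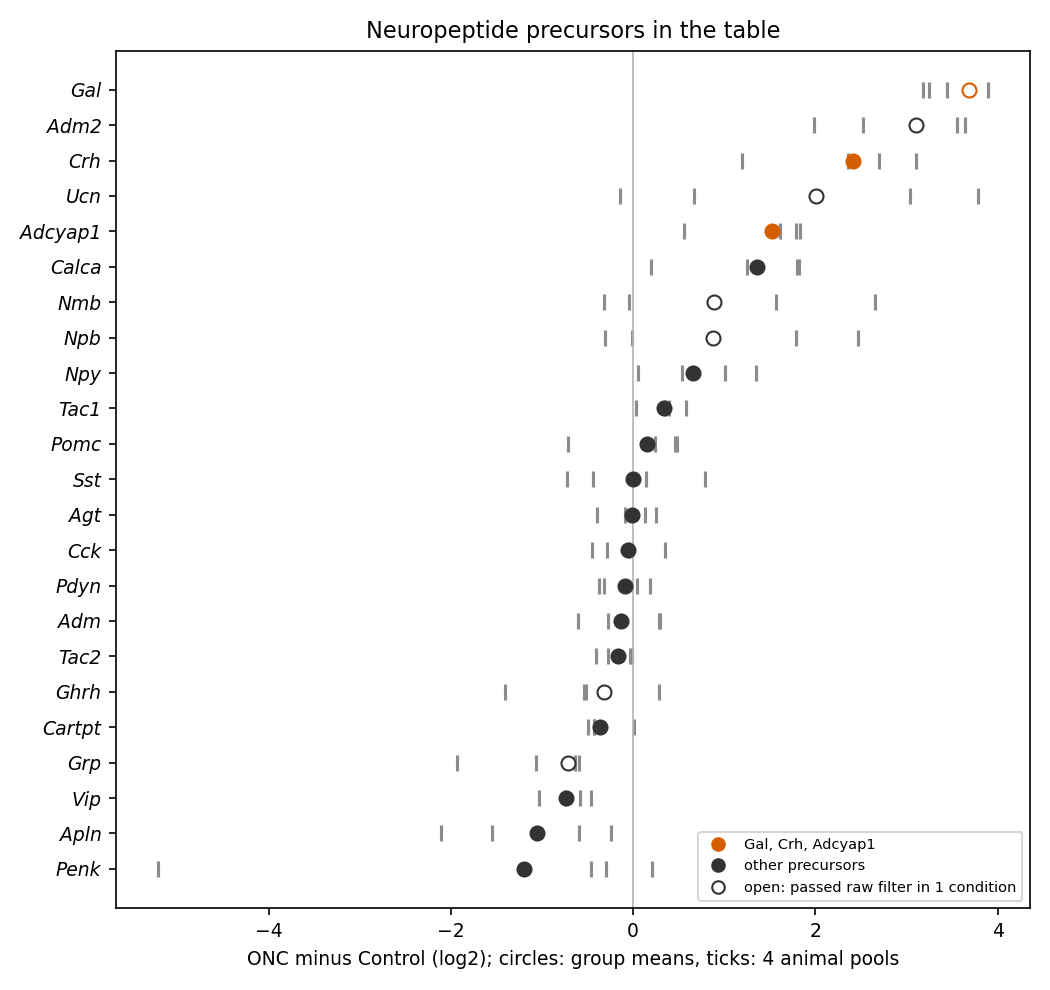
ONC minus Control on the log2 scale for the 23 measured precursors, ordered by difference. Circles are differences of group means (orange for Gal, Crh and Adcyap1, open where the raw-value filter was passed in 1 condition) and grey ticks the 4 within-pool differences. The ticks of Gal lie between 3.18 and 3.90, and those of Adcyap1 between 0.56 and 1.83.

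The partners of galanin could not be followed. Its relatives Galp and Spx and its receptors Galr1, Galr2 and Galr3 were not among the entries of the table. For the CRH system 4 of 6 partners were measured, and none passed (2 had an unadjusted p under 0.05). Ucn, whose product urocortin acts on both CRH receptors, stood at -0.40, 1.72, 2.12 and 0.00 in the controls and at 3.52, 3.38, 2.39, 1.98 and 3.04 in the crushed eyes. The groups overlapped in pool 976/978, where the crushed eye was the lower one, and the log2 difference was 2.00 ± 0.65 (SE, adjusted p = 0.160, higher in 3 of 4 pools, raw-value filter passed in 1 condition). With quantile normalization its difference was -0.083. Crhr1, the main receptor of CRH, lay between -0.11 and 0.13 in Control and at -0.56, -0.62, -0.48, -0.69 and -0.04 in ONC, a difference of -0.51 ± 0.14 (SE, adjusted p = 0.125, lower in 4 of 4 pools). Crhr2, the urocortin receptor, differed by -0.00 ± 0.44 (SE, adjusted p = 1.00). Crhbp, a binding protein that holds CRH away from its receptors, differed by -0.24 ± 0.75 (SE, adjusted p = 0.866), with -3.15 in ONC 914/92 and -0.05 to 0.87 in the other 4. Without that library its difference was 0.46, so its sign rests on it, and it was 0.66 without pool 914/92.

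All 6 listed partners of PACAP were measured and none passed, with 1 higher and 3 lower at an unadjusted p under 0.05. Adcyap1r1, the PAC1 receptor that prefers PACAP, stood at -0.30, 0.00, -0.39 and 0.08 in the controls and at -0.80, -0.60, -0.31, -0.69 and -0.59 in the crushed eyes. Only the value of ONC 938/88 lay within the control range, and the difference was -0.45 ± 0.15 (SE, adjusted p = 0.165, lower in 4 of 4 pools). Vipr2, a receptor shared by PACAP and VIP, was likewise lower in 4 of 4 pools, by -0.41 ± 0.13 (SE, adjusted p = 0.156), whereas Vipr1, the other shared receptor, differed by 0.70 ± 0.29 (SE, adjusted p = 0.224, higher in 3 of 4 pools). Ramp2 and Ramp3, accessory proteins that bind such receptors, differed by 0.43 and -0.30 (adjusted p = 0.375 and 0.586). Adcyap1 and Adcyap1r1 had differences of opposite sign, 1.53 and -0.45, but Adcyap1 was chosen from this contrast and Adcyap1r1 did not pass. The system had no common pattern of ligand and receptor, as the ligand Vip differed by -0.74 and the receptor Vipr1 by 0.70. Of the 6 partners, 2 had a positive and 4 a negative difference. The median of ganglion cell markers was also below its control range in all 5 crushed eyes, with values given below, while those of amacrine, horizontal, bipolar and photoreceptor markers were not in every one. Their part in the receptor values was not tested.

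**Figure D3:**
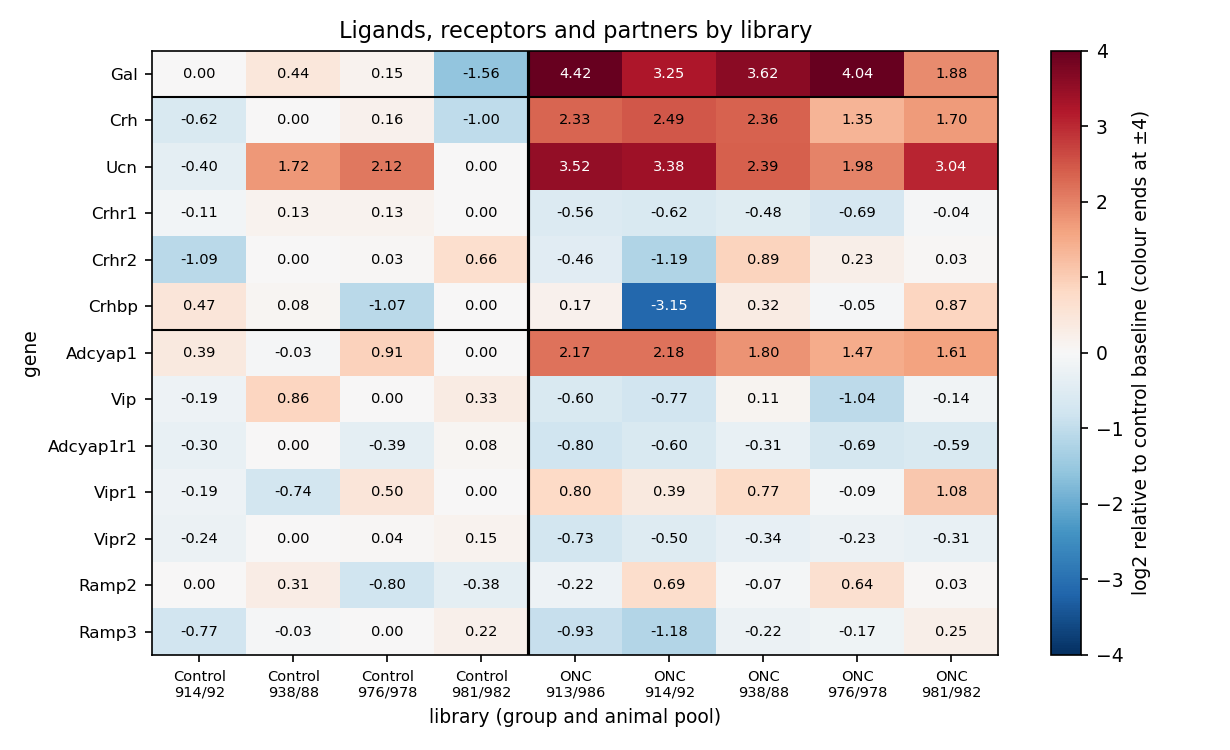
Log2 values of 13 genes (rows) in 9 libraries (columns, named by group and animal pool), relative to each gene's control baseline, with colour from blue (low) to red (high). Rows of Gal, Crh and Adcyap1 are red in all 5 ONC libraries, whereas Adcyap1r1 and Vipr2 are pale blue in all 5 and Crhr1 in all but 981/982.

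Among genes that make, store and cut peptides, 1 peptidase relative passed the test. Of 24 measured genes of processing and secretion none passed (1 higher and 7 lower at an unadjusted p under 0.05), with a median difference of -0.21. Resp18, a protein of dense core vesicles, had the smallest p, with a difference of -0.73 ± 0.13 (SE, adjusted p = 0.0575, lower in 4 of 4 pools). Its adjusted p was 0.0325 without a variance trend and 0.0400 without ONC 981/982. Vgf, the precursor of several secreted peptides, stood at -0.27 to 0.51 in Control and at 0.59 to 1.12 in ONC (difference 0.84 ± 0.18 SE, adjusted p = 0.0782, higher in 4 of 4 pools). Ptprn2, a membrane protein of the same vesicles, differed by -0.76 ± 0.22 (SE, adjusted p = 0.132). The list of peptidases, like the other lists, was written with earlier results of these data known. Of 13 peptidases and relatives 1 passed, Ecel1, a neuronal membrane protease induced by nerve injury. Its log2 difference was 4.60 ± 0.60 (SE, adjusted p = 0.0282 by limma, higher in 4 of 4 pools). Its adjusted p was 0.000283 without a variance trend, 0.0876 in the fit blocked by animal pool with a trend, 0.0341 in that fit with no trend, 0.148 with quantile normalization and 0.240 among entries that passed the raw-value filter in both conditions. It was 0.0640 without pool 914/92 and 0.128 without ONC 913/986 and ONC 914/92. Leaving out 1 library ended the call for Control 914/92 (0.0604), Control 938/88 (0.131), Control 976/978 (0.0821), Control 981/982 (0.0813), ONC 913/986 (0.0714), ONC 938/88 (0.0614) and ONC 976/978 (0.0774). The other 12 peptidases lay between -0.60 (Lnpep) and 0.34 (Dpp4).

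Downstream of these receptors, none of 32 genes of cyclic AMP signalling passed, with 2 higher and 9 lower at an unadjusted p under 0.05 and a median difference of -0.20. The 3 with the smallest p were all lower in 4 of 4 pools, but they were picked by p from this same contrast. Rapgef4, a cyclic AMP sensor, differed by -0.45 ± 0.08 (SE, adjusted p = 0.0642), and its adjusted p was 0.0372 without a variance trend. Pde10a, a phosphodiesterase, differed by -1.04 ± 0.23 (SE, adjusted p = 0.0853), and Gnal, a stimulatory G protein subunit of neurons, by -0.99 ± 0.23 (SE, adjusted p = 0.0925, and 0.0487 without ONC 981/982). Creb1 and Crem, whose products bind cyclic AMP response elements, differed by 0.05 and 0.49 (adjusted p = 0.713 and 0.170). Receptors of other neuropeptides gave none of 20 (5 lower at an unadjusted p under 0.05), with a median difference of -0.40. Oprl1, the nociceptin receptor, differed by -0.74 ± 0.20 (SE, adjusted p = 0.128), and Oxtr, the oxytocin receptor, by -0.69 ± 0.27 (SE, adjusted p = 0.206). Sstr4, a somatostatin receptor, stood at -2.89 in 3 crushed eyes, a shared lowest value, so its difference of -2.37 (adjusted p = 0.198, and 0.0493 without a variance trend) depends on that floor. Creb1, Crem, Lnpep and Dpp4 were chosen once their values were known.

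Marker RNA of other cell types also differed between the groups. Markers of ganglion cells of the retina, the neurons whose axons form the optic nerve, had list medians from -0.22 to 0.09 in Control and from -0.99 to -0.52 in ONC. Of these 12, 1 passed and was lower, Sncg, and 8 were lower at an unadjusted p under 0.05. Sncg had an adjusted p of 0.0469 by limma, but of 0.0801 in the fit blocked by animal pool with a trend. Its call was also lost wherever an alternative called no entry as lower. These included quantile normalization, the filter in both conditions, and leaving out any Control library or ONC 913/986, 938/88 or 976/978. Without a variance trend 5 of the 12 passed, all lower. The ganglion cell markers were thus lower in the crushed eyes in which the 3 peptide transcripts were higher. Fewer cells of a type, less RNA per cell and less RNA of unmarked cells carried into a pull-down cannot be told apart. Amacrine markers had medians from -0.40 to 0.20 in Control and from -0.78 to 0.17 in ONC, and none of 9 passed. Horizontal cell medians ran from -0.54 to 0.28 and from -1.68 to -0.26, bipolar medians from -0.46 to 0.15 and from -0.98 to 0.04, and photoreceptor medians from -0.61 to 0.21 and from -1.04 to 0.11, in the same order of groups, with none of 5, 6 and 8 markers past the test (1 of the 5 horizontal cell markers, lower, without a trend). Microglia and macrophage medians lay between -0.18 and 0.21 in Control and between 0.28 and 2.57 in ONC (1 of 10 passed, Cd68, higher, which met the raw-value filter in 1 condition), and those of other leukocytes between -0.08 and 0.53 and between 1.85 and 3.18 (none of 4, and 3 of 4, all higher, without a trend). Astrocyte medians ranged from -0.55 to 0.50 and from -0.39 to 0.57, and endothelial and pericyte medians from -0.14 to 0.51 and from -0.43 to 0.33, with none of 5 and of 6 past the test. At an unadjusted limma p under 0.05, 7 of 10 microglia and macrophage markers and 3 of 4 of other leukocytes were higher. In each of these 2 lists 3 markers passed the raw-value filter in 1 condition. Higher at that threshold were also 3 of 12 Müller glia and 2 of 5 astrocyte markers, while 3 of 5 horizontal cell markers were lower. No amacrine, bipolar, photoreceptor, endothelial or pericyte marker was under it. The part of these cell types in the peptide values was not tested.

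**Figure D4:**
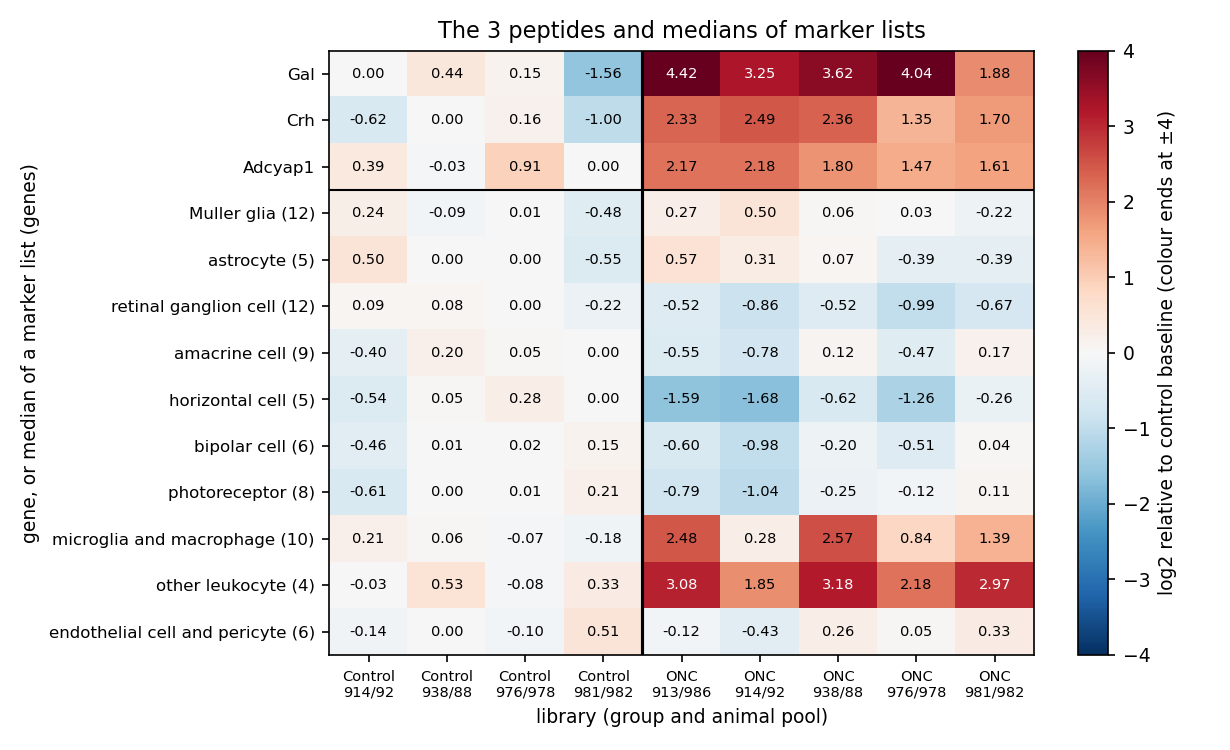
Log2 values of the 3 peptide genes and medians of 10 marker lists (number of genes in brackets) in 9 libraries, relative to the control baseline. The peptide rows are high in all 5 ONC libraries, the ganglion cell row is low in them, and the microglia row varies among them, from 0.28 to 2.57.

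Genes whose values were most like those of each peptide were found by the smallest root mean square difference over the 9 libraries, which favours genes with a difference of like size. For Gal these were Prss12 (0.79), Sox11 (0.80), Cd68 (0.82), Abcc3 (0.90) and S100a8 (0.95). Prss12, Cd68 and S100a8, like Gal, passed the raw-value filter in 1 condition. Prss12 had its lowest value, -0.87, in both Control 938/88 and Control 981/982, so low values may add to the likeness. Prss12 is a synaptic protease, Sox11 a transcription factor of developing neurons, Cd68 and S100a8 belong to phagocytes, and Abcc3 is an anion transporter. For Crh they were Fam110c (0.42), Stmn4 (0.45), which encodes a neuronal stathmin, Tlr13 (0.52), an RNA sensor of immune cells, Gm13889 (0.54) and Adcyap1 itself (0.58). For Adcyap1 they were Runx1 (0.39), a transcription factor, Ndc80 (0.44), a kinetochore protein, Aldh1l2 (0.46), a mitochondrial folate enzyme, Fam167a (0.47) and Stmn4 (0.47). Stmn4 was the gene that Crh and Adcyap1 had in common, and its values were 0.24, 0.00, -0.28 and -0.66 in the controls and 1.93, 2.04, 1.69, 1.44 and 1.64 in the crushed eyes. The 5 crushed eyes stood in the same order for Stmn4 as for Adcyap1, from 914/92 down to 976/978. As Stmn4 was picked for its likeness over these 9 libraries, nothing is read from that order.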

How the data were processed

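Ribosome-bound RNA of 9 pools of 2 retinae was sequenced after GFP pull-down. The authors deposited log2 values, normalized and set against a baseline for each gene, and, per the file headers, kept entries with raw values between 5 and 298892.188 in 100% of the samples of at least 1 of 2 conditions. The deposited count of conditions in which an entry passed that filter was used to mark entries. The genome build was mm10 and DESeq was named, per the submitters' processing notes, and the sources used here name no aligner or counter. The table holds no read counts, so depth is unknown and precision rests on the spread between libraries. A control of pool 913/986 was not analysed here.

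Libraries were grouped by their labels into 5 ONC and 4 Control. Differences are ONC minus Control on the log2 scale. Tests used limma 3.58.1 in R 4.3.3 with a variance trend over all 14194 entries, two-sided, with Benjamini-Hochberg adjustment and a threshold of 0.05, and were checked on simulated data. The pools' animal numbers in the labels pair fellow eyes. Deviations of fellow eyes from their group means correlated at 0.377 in 914/92, 0.178 in 938/88, -0.0642 in 976/978 and 0.450 in 981/982. Alternatives were no trend, the pool as a block, quantile normalization of the deposited values, entries that passed the filter in both conditions and leaving out each library. The peptides and gene lists were chosen with earlier results of these data known. Genes named were all measured partners of the CRH and PACAP systems and the 5 nearest genes of each peptide. Of each other list of peptide or cyclic AMP genes they were those that passed, or the 3 with the smallest p where none did. Promoters came from a RefSeq table of GRCm38.p6.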

Additional observations from a re-analysis of the deposited data

Results flagged for a closer look

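In 5 of 98 groups of 4 or 5 libraries, 1 library lay far from the others by Dixon's criterion. Chance gives about 1 in 20 such groups. The groups were those of genes named by the rule above and of the medians of the marker lists. Genes named otherwise were not examined, among them Penk, with -4.76 in ONC 914/92 against -0.98 to 0.20 in the other crushed eyes. Crhbp was -3.15 in ONC 914/92, against -0.05 to 0.87 in the other 4 crushed eyes. Ndc80 was 2.35 in ONC 913/986, against 1.54 to 1.77 in the others. Vgf was 0.59 in ONC 976/978, against 1.02 to 1.12. Abcc3 was -0.87 in Control 938/88, against -0.06 to 0.06 in the other 3 controls. Prss12 had that same value in Control 938/88 and Control 981/982, and whether it is a floor was not tested. Rapgef4 was 0.14 in Control 981/982, against -0.01 to 0.00. None of these values belongs to Gal, Crh or Adcyap1.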

How the results depend on the processing

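The differences of Gal, Crh and Adcyap1 kept their sign under all alternatives run, with ranges of 3.25 to 4.08, 2.20 to 2.58 and 1.41 to 1.73 when 1 library was left out. With quantile normalization they were 2.90, 2.06 and 0.85, and Gal has no value among entries that passed the filter in both conditions. The number of entries called was 50, and was 165 without a variance trend, 129 with the replicate block (animal pool) without a trend, and 0 with the block and a trend (3574 at an unadjusted limma p under 0.05). It was also 0 with quantile normalization (1848), among entries that passed in both conditions (2672), without ONC 913/986 and ONC 914/92 (1571) and with the block without pool 914/92 (2630), and 0 to 68 when 1 library was left out. It was 0 without Control 938/88 (1954) or Control 976/978 (1804), 26 without Control 914/92, 8 without Control 981/982, and 4, 3 and 6 without ONC 913/986, 938/88 and 976/978. The alternatives that drop these 2 libraries or pool 914/92 were chosen after seeing the data. Without a trend 1 precursor (Adm2, also with the replicate block), 1 gene of processing (Resp18), 1 other receptor (Sstr4) and 1 of cyclic AMP signalling (Rapgef4) passed. When 1 library was left out these lists held 0 to 1 calls for processing, peptidases and cyclic AMP signalling. The 1 peptidase call became 0 with the block and a trend, quantile normalization, the filter in both conditions, without the 2 libraries, and without pool 914/92 with or without the block. Signs turned for Ucn (-0.083) with quantile normalization, for Ramp3 (0.10) without the 2 libraries, and for Crhbp (0.036 with quantile normalization, 0.46 without ONC 914/92, and 0.51, 0.66 and 0.71 without the 2 libraries, without pool 914/92 and with the block without that pool). The cause was not tested. Crhr2, at -0.00, was 0.089 with the replicate block (0.154 without pool 914/92), 0.167 with quantile normalization, 0.484 without the 2 libraries, 0.033, 0.044 and 0.254 without Control 938/88, 976/978 and 981/982, and 0.089 and 0.274 without ONC 913/986 and 914/92. The galanin list gave no value. Low raw values limit Gal, Ucn, Adm2 and Sstr4, and Prss12, Cd68 and S100a8 among the genes most like Gal.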
